A study of Mus musculus with 6 samples.

Results

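The genes described here are 9 members of the Ly6/uPAR family (Slurp1, Ly6a, Ly6c1, Ly6d, Ly6e, Ly6g6c, Lypd2, Lypd3 and Lypd5), taken by gene symbol from a table of 17866 mouse genes. Their RNA levels were measured in 6 bulk RNA-seq libraries, each made from the separated epithelial layer of the cornea of C57BL/6 mice aged 6 months. The 3 control libraries carry the genotype label WT, and whether these animals bore the Cre or a floxed allele is not given in the sources used here. The other 3 libraries carry the label Rela-/- and are called KO. In the study these mice were Krt14-Cre; Rela f/f, so that Rela, which encodes the NF-κB subunit p65, was deleted in cells that express or have expressed keratin 14. These cells include the corneal and limbal epithelium and also the conjunctiva, meibomian glands, skin and oral mucosa. The state of the gene in stroma, vessels and blood cells is not given in the sources used here. By this age the mutant corneas carry plaques and a thick keratinized layer, per the study.

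Ly6/uPAR proteins share a compact domain held together by disulfide bonds, known as the three-finger fold. Most of them are tethered to the outer leaflet of the plasma membrane by a glycosylphosphatidylinositol (GPI) anchor, and a few, such as Slurp1, are secreted. Members of the family bind nicotinic acetylcholine receptors, proteases or integrins, and several serve as markers of cell types, among them Ly6a (Sca-1) and Ly6d. In stratified epithelia the family is known for secreted Slurp1, whose loss in humans causes a palmoplantar keratoderma, and for Lypd3 (C4.4A), a protein of suprabasal cells.

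Some members resemble each other closely enough to share reads, which limits how their levels can be read. The study used single-end reads of 50 bases. In the protein-coding transcripts of GENCODE M21 (GRCm38), 19.0% of the 1297 distinct 50-base windows of Ly6a and 32.8% of the 1764 windows of Ly6c1 also occur in a transcript of any type of another gene. Ly6a shared 195 windows with Ly6c1 and 31 with Ly6i, and 379 windows of Ly6c1 occur in a transcript of Ly6c2, its intron-retaining transcript included. The first 90 coding bases of these 4 genes are shown because they make the likeness visible, with bases that differ from Ly6a in capitals. All lie on the minus strand of chromosome 15 (GRCm38) and are split over 2 coding exons, and the spans are chr15:74996549-74997604 for Ly6a, chr15:74981983-74983059 for Ly6i, chr15:75047450-75048511 for Ly6c1 and chr15:75110608-75111667 for Ly6c2.
Ly6a: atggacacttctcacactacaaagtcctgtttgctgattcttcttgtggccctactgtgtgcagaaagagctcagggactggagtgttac
Ly6i: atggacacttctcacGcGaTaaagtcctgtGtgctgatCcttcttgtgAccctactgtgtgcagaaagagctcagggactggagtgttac
Ly6c1: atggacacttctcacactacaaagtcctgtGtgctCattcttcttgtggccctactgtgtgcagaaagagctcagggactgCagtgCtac
Ly6c2: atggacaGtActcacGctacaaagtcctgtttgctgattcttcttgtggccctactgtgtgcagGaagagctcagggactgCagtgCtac

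Over this stretch Ly6c1 differed from Ly6a at 4 bases, and Ly6i and Ly6c2 each differed from it at 6. The deposited counts of Ly6a, Ly6c1 and Ly6g6c were not whole numbers, as estimated counts can be where reads match more than 1 place. In the table the Ly6c1 gene model (chr15:74994877-75048853) shares its lowest coordinate, its end on the minus strand, with Ly6a (chr15:74994877-74998031). The Ly6c1 model also contains all of Ly6a, so the split of reads between these genes is uncertain. For Slurp1, 9.31% of the windows were shared with the neighbouring gene Them6, whereas Ly6d, Ly6e, Ly6g6c and Lypd2 shared no window with another gene. As the counts of Ly6g6c were nevertheless not whole, this search may miss places where reads were divided. Lypd3 shared 8.12% of its windows with Gm26550 and Lypd5 shared 1.37%, most of these with St8sia1.

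Promoter sequence was at hand in the RefSeq table (GRCm38.p6) for 4 of the 9 members, and windows from 250 bases before to 50 bases after the gene start were searched on both strands. Since the deleted gene encodes a DNA-binding subunit of NF-κB, the windows were searched for the κB consensus, which 8.49% of 32544 mouse promoter windows held. None of the 5 windows of Lypd5, Lypd3, Ly6c1 (which has 2) and Ly6g6c held it, and no more can be read from these letters than that. The TATA motif TATAAA, present in 13.6% of all windows, occurred in 2 of the 5. The windows of Lypd5 (chr7:24348946-24349245, plus strand), the member with the largest rise among those with a window, and of Ly6g6c (chr17:35067075-35067374, plus strand) are given, with TATAAA in capitals where it occurs, which in Ly6g6c was 30 bases before the start.
Lypd5: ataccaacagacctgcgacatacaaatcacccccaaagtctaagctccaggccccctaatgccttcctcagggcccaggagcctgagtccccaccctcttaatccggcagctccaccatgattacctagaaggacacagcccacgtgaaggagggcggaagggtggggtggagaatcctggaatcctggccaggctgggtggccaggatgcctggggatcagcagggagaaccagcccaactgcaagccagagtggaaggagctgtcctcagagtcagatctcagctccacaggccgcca
Ly6g6c: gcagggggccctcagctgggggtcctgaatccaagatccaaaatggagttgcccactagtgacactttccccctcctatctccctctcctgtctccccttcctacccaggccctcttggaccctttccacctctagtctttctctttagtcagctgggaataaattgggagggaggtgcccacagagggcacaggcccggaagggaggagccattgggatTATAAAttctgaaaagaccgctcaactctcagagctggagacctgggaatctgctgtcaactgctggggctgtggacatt

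Library totals lay between 20158404 and 20880347 estimated counts, so that a floor of 3 counts was between 0.137 and 0.152 CPM (counts scaled to a common library total, with TMM factors), covering counting error only. The targeted gene fell in every KO library. Rela had 85.7, 85.8 and 87.8 CPM in WT and 16.1, 11.2 and 15.6 CPM in KO (log2 fold change -2.60, SE 0.141, edgeR adjusted p = 2.74e-06). Of 6 corneal epithelial markers 5 fell (30.2% of all genes tested did), Krt12 from 36538 to 7121 CPM on average. Of 8 suprabasal epidermal markers 6 rose (31.8% of all genes tested did) and 1 fell. The 6 tested markers of conjunctiva and goblet cells all rose, against 31.8% of all genes, Krt13 from 1972 to 38248 CPM. In bulk libraries fewer cells of a type and less RNA per cell cannot be told apart, which holds for every level below. p-values weigh the difference between genotypes against the spread between the 3 samples of a group.

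To find out whether the family moved with the genotype, each member was compared between KO and WT. All 9 members differed. Ly6d, Lypd5, Ly6c1, Ly6a, Ly6g6c, Ly6e and Lypd3 rose in KO, and Slurp1 and Lypd2 fell. The rises ranged from 1.58-fold for Lypd3 to 1377-fold for Ly6d, and the falls were 3.70-fold for Slurp1 and 3.55-fold for Lypd2. At an adjusted p of 0.05 (edgeR quasi-likelihood test, Benjamini-Hochberg over all 13305 genes tested), 9 of 9 members were called, against 62.0% of all genes. The 7 members called higher stood against 31.8% of all genes, and the 2 called lower against 30.2%. In none of the 9 did a KO library overlap a WT library in CPM, which was true of 68.7% of all genes tested. The study's cut-offs, an adjusted p of 0.001 or less and a fold of at least 2, were also applied to the edgeR values. With them 4 members were higher (11.6% of all genes were) and 2 lower (8.24%), and Ly6e, Ly6g6c and Lypd3 missed them. The authors' own calls were not used. The median log2 fold change was 1.03 over the members and 0.01 over all genes tested. Because so many genes differed, a call alone sets no member apart.

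**Figure D1:**
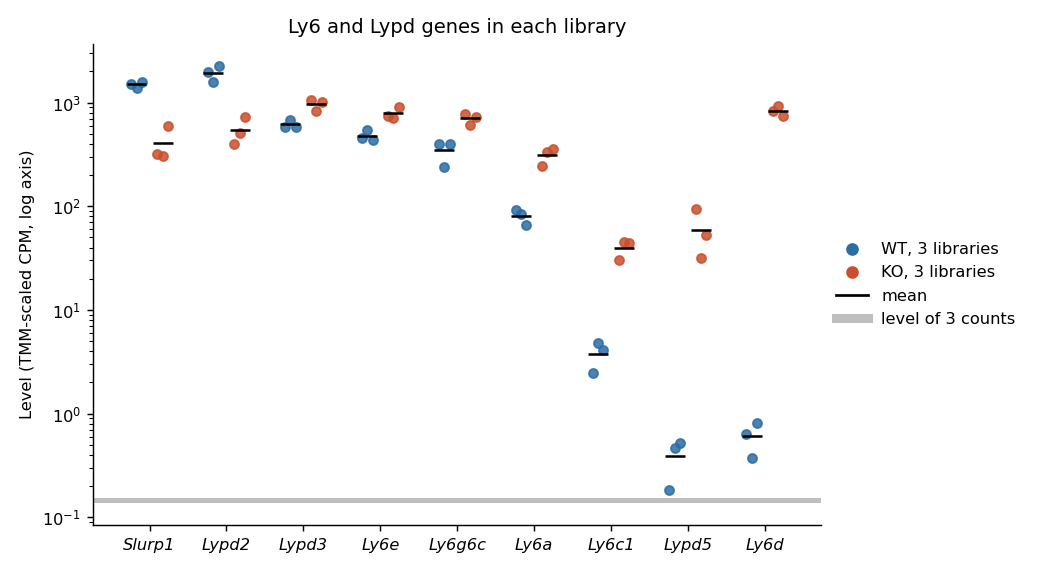
Level of each of the 9 genes (TMM-scaled CPM, log axis) in the 3 WT libraries (blue) and the 3 KO libraries (orange), with the group mean as a black line and the level of 3 counts as a grey band. Slurp1 and Lypd2 sit lower in every KO library, the other 7 genes higher, and Ly6d goes from a mean of 0.606 CPM to 835 CPM.

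Slurp1 and Lypd2, the most abundant members of the WT epithelium, lost most of their RNA. Slurp1 encodes a secreted protein of corneal and skin epithelium that acts at nicotinic acetylcholine receptors. In WT its counts were 33166, 29759 and 33561, and in KO they were 6280, 6100 and 11840. The KO libraries were all lower, and KO 3 kept more than the others. Mean levels were 1498 ± 104 CPM in WT and 405 ± 161 CPM in KO (SD, n = 3 each), which left 27.0% of the level in controls (log2 fold change -1.89, SE 0.249, edgeR adjusted p = 2.78e-04). The Slurp1 gene model in the table (chr15:74724385-74728026) begins next to Them6, which fell from 30.9 to 8.73 CPM and shares windows with it, as given above. Lypd2, a GPI-anchored family member encoded by the next gene, gave 42899, 34092 and 47804 counts in control libraries and 7791, 10149 and 14738 in KO. Again no KO library reached the WT range, and KO 3 was the highest of the 3. Its mean fell from 1938 ± 340 to 546 ± 173 CPM, leaving 28.2% (log2 fold change -1.83, SE 0.237, edgeR adjusted p = 2.51e-04). Both are short transcripts, with effective lengths of 498 and 477 bases. With a correction for gene length their log2 fold changes were further from 0, at -2.84 and -2.81.

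Klf4 and Klf5 encode Krüppel-like transcription factors of the corneal epithelium, and Klf4 is known to activate Slurp1. Klf4 had 1111, 1219 and 1189 CPM in WT and 1124, 732 and 967 CPM in KO. The groups overlapped, and the log2 fold change of -0.32 (SE 0.159) did not pass the test (edgeR adjusted p = 0.113). Klf5 ranged from 187 to 209 CPM in WT and from 152 to 223 CPM in KO (log2 fold change -0.01, SE 0.149, edgeR adjusted p = 0.955).

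Ly6d was close to absent in WT and became one of the abundant members in KO. The gene encodes a GPI-anchored protein of keratinocytes and early B cells. Its counts were 14, 8 and 17 in WT and 16435, 18644 and 14784 in KO. The WT values were only just above the floor of 3 counts, while the KO libraries lay within a narrow range. Mean levels were 0.606 ± 0.219 and 835 ± 99.3 CPM, a 1377-fold rise (log2 fold change 10.41, SE 0.243, edgeR adjusted p = 1.14e-07). The size of the fold depends on the few WT counts, and with limma on log2(FPKM + 1) it was 9.29 on the log2 scale.

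Lypd5, a GPI-anchored family member, showed the same kind of change at a lower level. In WT it was counted 4, 10 and 11 times, and in KO 1863, 627 and 1061 times. KO 1 was the highest and KO 2 the lowest KO library, and both lay far above WT. The mean rose from 0.390 ± 0.181 to 59.6 ± 32.0 CPM, which is 153-fold (log2 fold change 7.24, SE 0.543, edgeR adjusted p = 1.4e-05). With limma on log2(FPKM + 1) the value was 5.34.

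Ly6a (Sca-1), a GPI-anchored marker of many stem and progenitor cells and of vessels, and Ly6c1, a protein of endothelial cells and leukocytes, also rose. Ly6a had 91.2, 83.4 and 66.6 CPM in WT and 246, 336 and 360.0 CPM in KO. Every KO library was above every WT library, and the mean rose 3.91-fold (log2 fold change 1.97, SE 0.173, edgeR adjusted p = 3.29e-05). Ly6c1 had 2.44, 4.79 and 4.06 CPM in WT and 30.4, 44.8 and 43.8 CPM in KO. The libraries did not overlap, and the rise was 10.5-fold (log2 fold change 3.40, SE 0.255, edgeR adjusted p = 1.4e-05), or 2.78 on the log2 scale with the length correction. As both share reads with each other and with Ly6c2 and Ly6i, their separate levels are uncertain. Ly6c2 itself had at most 28.26 counts in a library and Ly6i at most 8.85, so neither was tested.

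Since Ly6a and Ly6c1 are also expressed by vessels and leukocytes, the markers of these cells were set beside them. Of 8 endothelial markers 5 were in the table. Their summed level, most of it from Tie1, was 1.51 to 2.08 CPM in WT and 2.41 to 3.44 CPM in KO. Pecam1, an adhesion protein of endothelium, gave 1, 3 and 4 counts in control libraries and 15, 14 and 16 in KO (log2 fold change 2.54, SE 0.465, edgeR adjusted p = 1.62e-03), Tie1 did not pass (0.39, adjusted p = 0.279), and Kdr and Tek had at most 2 counts in any library. The 10 leukocyte markers summed to 296 to 348 CPM in WT and 451 to 881 CPM in KO. Itgam alone made up most of the WT sum, and Itgam, S100a8 and S100a9 together most of the KO sum. Of the 9 tested, 7 rose (31.8% of all genes did), 1 did not pass and Itgam fell. Itgam had 257, 233 and 307 CPM in WT and 137, 185 and 202 CPM in KO. Among those that rose, Ptprc went from a mean of 0.402 to 5.27 CPM and Cd74 from 7.99 to 64.3 CPM. The neutrophil and keratinocyte gene S100a9 had 58.8 CPM in WT 2 and 0.779 and 1.33 CPM in the other WT libraries, while in WT 2 Ly6a lay between the other WT libraries and Ly6c1 was highest. Of 9 fibroblast markers 6 were tested, of which 5 rose (31.8% of all genes did) and Pdgfra fell (30.2% did). The 9 summed to 13.4 to 16.9 CPM in WT and 19.2 to 32.4 CPM in KO. Most of the WT sum was Pdgfra, at 12.6, 10.9 and 15.6 CPM, with 1.16, 1.4 and 1.05 CPM in KO. Among those that rose, Vim went from a mean of 0.905 to 10.3 CPM and Thy1 from 0.108 to 7.27 CPM. The part of these cells in the rise of Ly6a and Ly6c1 was not tested.

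Ly6e, Ly6g6c and Lypd3 were abundant in both genotypes and rose least. Ly6e, a GPI-anchored protein induced by interferon, gave 10007, 11700 and 9187 counts in control libraries and 14696, 14312 and 18308 in KO. Its mean rose from 479 ± 57.6 to 791 ± 105 CPM (log2 fold change 0.72, SE 0.136, edgeR adjusted p = 1.90e-03). Lypd3 (C4.4A), which marks suprabasal cells of stratified epithelia, gave 12630, 14704 and 12291 counts in control libraries and 21145, 16714 and 20148 in KO. The nearest libraries, WT 2 and KO 2, lay at 684 and 838 CPM, and the log2 fold change was 0.66 (SE 0.13, edgeR adjusted p = 2.42e-03). Ly6g6c, encoded in the major histocompatibility complex, had 399, 241 and 396 CPM in WT and 775, 614 and 721 CPM in KO. WT 2 was the lowest library, and the groups did not overlap (log2 fold change 1.03, SE 0.198, edgeR adjusted p = 2.13e-03). With the length correction the rise of Ly6g6c no longer passed the test (log2 fold change 0.50, adjusted p = 0.0652), the only member call lost in 16 alternative fits.

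**Figure D2:**
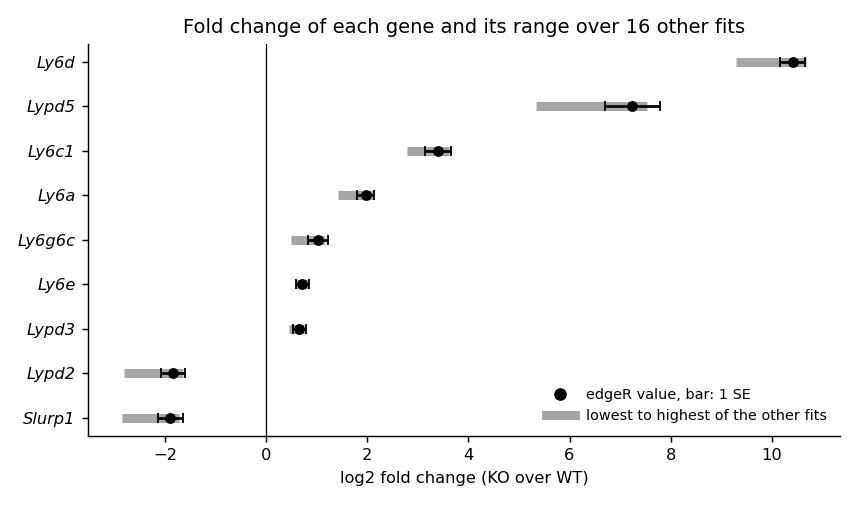
Log2 fold change (KO over WT) of the 9 genes, with points for the edgeR value, error bars of 1 SE and grey bars from the lowest to the highest of 16 alternative fits. Every grey bar stays on 1 side of 0; those of Slurp1 and Lypd2 reach -2.84 and -2.81, and that of Lypd5 goes down to 5.34.

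The order of the members within a library was compared on FPKM (fragments scaled to gene length and library total). In WT, Lypd2 (mean 4198 FPKM) lay above Slurp1 (3112 FPKM), and both lay above all other members without overlap. They ranked 6th and 12th among the genes of the table. Lypd3 (392 FPKM), Ly6g6c (379 FPKM) and Ly6e (253 FPKM) followed, and neighbours among these 3 overlapped. Ly6a (88.3 FPKM) and Ly6c1 (5.19 FPKM) each stood apart from their neighbours, and Ly6d (0.937 FPKM) and Lypd5 (0.440 FPKM) overlapped at the bottom. In KO the order had turned. Ly6d was highest on average (1210 FPKM, between 1060 and 1384), and it could not be told apart from Lypd2 (1109 FPKM, between 787 and 1479), nor Lypd2 from Slurp1 (784 FPKM) or Slurp1 from Ly6g6c (721 FPKM). Lypd3 (577 FPKM, between 510 and 627) came next, below every Ly6g6c value but overlapping the lower Slurp1 values of 607 FPKM, then Ly6e (392 FPKM) and Ly6a (322 FPKM), which overlapped, and last Lypd5 (62.4 FPKM) and Ly6c1 (46.7 FPKM).

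The make-up of the family changed, and whether its total changed depended on the measure. Together the members made up 0.512% ± 0.0385 of the counts of a WT library and 0.451% ± 0.0386 of those of a KO library (SD, n = 3 each). The ranges of 0.468% to 0.540% and 0.429% to 0.495% overlapped. Of the members' summed FPKM, Slurp1 and Lypd2 held 86.6% ± 1.37 in WT and 35.6% ± 7.63 in KO. Ly6d alone went from 0.0109% to 23.5% of that sum, Ly6g6c from 4.45% to 13.9%, Lypd3 from 4.72% to 11.1% and Ly6a from 1.06% to 6.15%. In TPM, which allows for gene length, the members' share was 1.91%, 1.59% and 1.91% in the WT libraries and 0.873%, 0.897% and 1.07% in the KO libraries, without overlap.

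**Figure D3:**
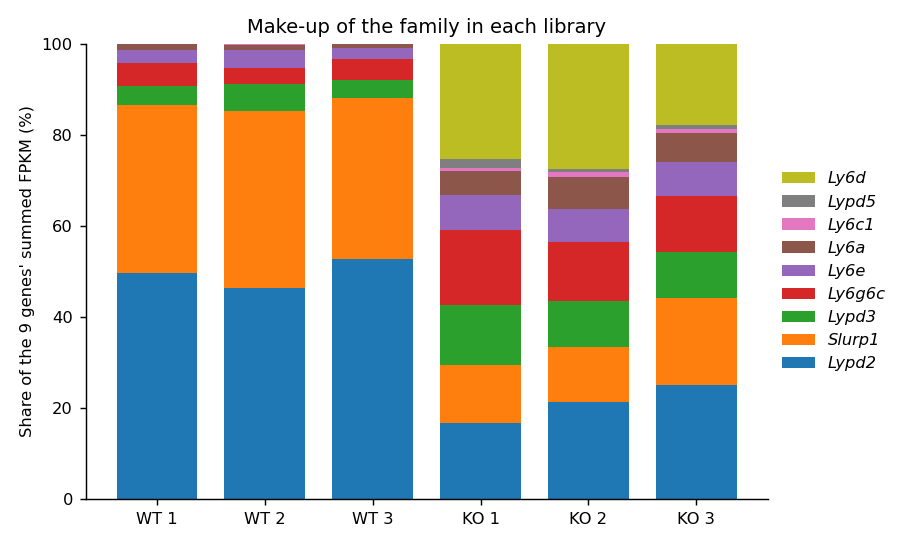
Share of each gene in the summed FPKM of the 9 genes (stacked bars, percent) for each WT and KO library. Lypd2 and Slurp1 make up between 85.3% and 88.0% in WT and between 29.4% and 44.1% in KO, where Ly6d fills 17.9% to 27.6%.

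The members lie in 3 gene clusters, and the direction of change was described along each of them. On chromosome 15 the table lists 21 genes between Psca and Ly6h (chr15:74714839-75567560), of which 14 were tested, 6 of them higher and 6 lower in KO, where 31.8% and 30.2% of all genes were. From Psca to Lynx1, no tested gene had a positive log2 fold change. Them6, Slurp1, Lypd2 and Lynx1 fell, and Psca and Slurp2 did not pass the test. From Ly6d to Ly6c1, all 6 tested genes rose, and beyond Ly6c1 both tested genes, I830127L07Rik (log2 fold change -1.57) and Ly6g (-1.80), fell, each with overlapping groups. These stretches were drawn after the values were seen. Lynx1, which encodes a membrane-bound modulator of nicotinic receptors, gave 9426, 9297 and 8750 counts in control libraries and 1367, 1510 and 1917 in KO. In KO 18.8% was left (log2 fold change -2.41, SE 0.133, edgeR adjusted p = 2.97e-06), a larger fall than that of Slurp1 or Lypd2, though the difference was not tested. Psca, a GPI-anchored protein of many epithelia, had 1816, 1465 and 2119 CPM in WT and 1091, 1084 and 1746 CPM in KO. Its groups overlapped (log2 fold change -0.46, SE 0.217, edgeR adjusted p = 0.0959), and it was called lower in 8 of the 16 alternative fits.

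On chromosome 7 the family genes Lypd5, Plaur, Pinlyp and Lypd3 were tested among 12 genes (chr7:24349224-24672050), and all 4 rose, against 31.8% of all genes. Of the 8 tested genes between them that belong to other families, 1 rose, 1 fell and 6 did not pass. Pinlyp, a secreted inhibitor of phospholipase A2 with the family's domain, gave 15, 11 and 26 counts in control libraries and 1935, 1636 and 1724 in KO, a 109-fold rise (log2 fold change 6.77, SE 0.232, edgeR adjusted p = 3.64e-07). Plaur encodes the urokinase receptor, which gives the family its second name. It rose 16.8-fold, from 0.623 to 10.5 CPM (log2 fold change 4.06, SE 0.404, edgeR adjusted p = 5.99e-05). On chromosome 17 (chr17:35067325-35115400) 3 of the 5 tested genes, Ly6g6c, Ly6g6e and Ly6g5b, rose, against 31.8% of all genes. Ly6g6d and Abhd16a did not pass. Ly6g6e had a mean of 43.7 CPM in WT and 77.3 CPM in KO (log2 fold change 0.82, SE 0.0989, edgeR adjusted p = 1.67e-04).

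**Figure D4:**
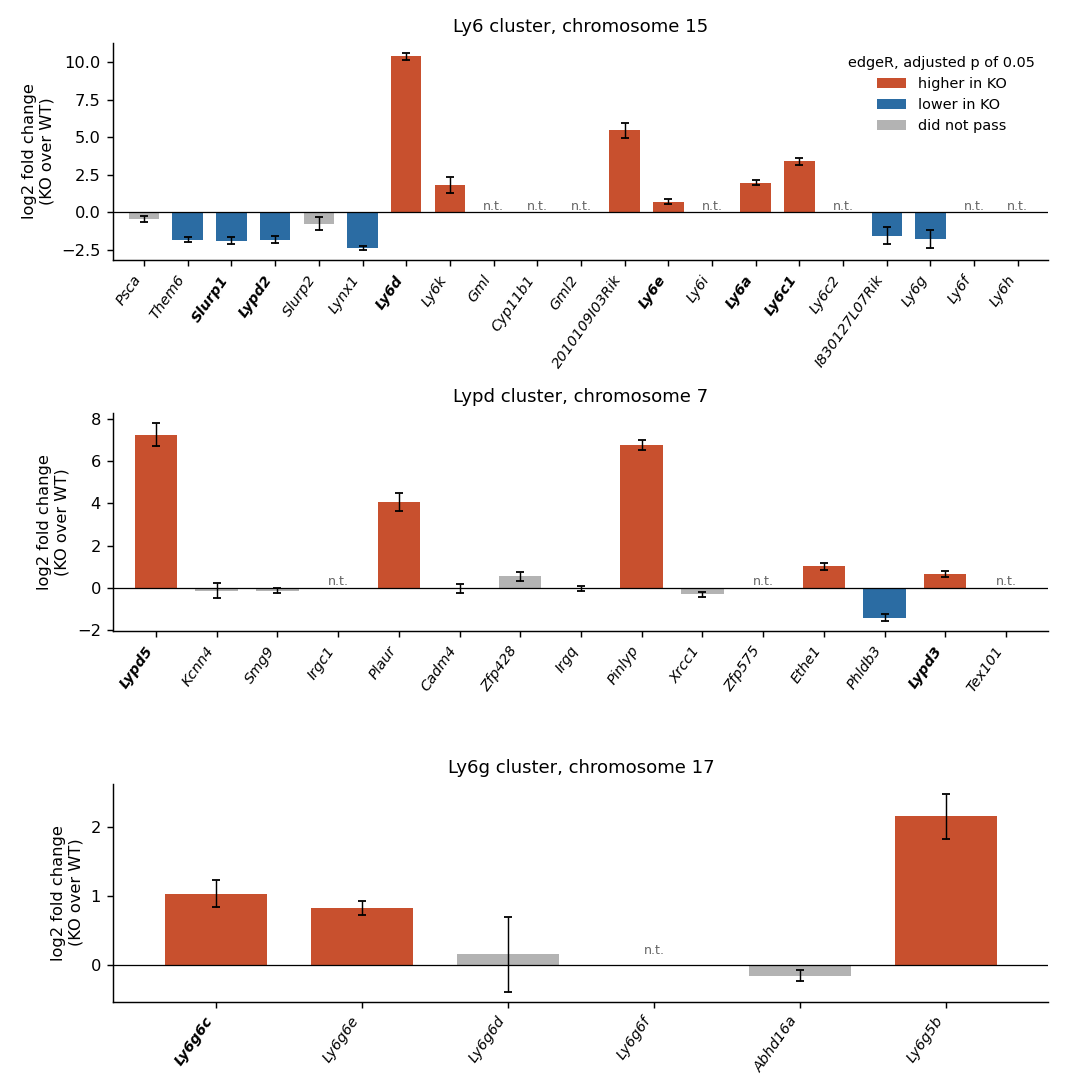
Log2 fold change (KO over WT, bars, error bars of 1 SE) of every gene of the table in gene order along the 3 clusters, with the 9 genes in bold, orange for higher, blue for lower and grey for genes that did not pass; n.t. marks genes with too few counts to test. On chromosome 15 the tested genes from Psca to Lynx1 lie below 0 and those from Ly6d to Ly6c1 above it, up to 10.41 for Ly6d, and the last 2 tested genes lie below 0 again.

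The rest of the family was taken from a list of 39 further genes, matched by symbol. A family gene entered under another symbol would not be counted. Of the list, 26 were in the table and 16 could be tested. Of these 6 rose (Ly6k, Ly6g5b, Ly6g6e, Lypd6b, Plaur and Pinlyp), 3 fell (Lynx1, Ly6g and Lypd6) and 7 did not pass, which is near the 62.0% called among all genes. The median log2 fold change was -0.24. Lypd6 and Lypd6b, related modulators of nicotinic receptors, moved in opposite directions. Lypd6 had 15.3, 14.0 and 17.8 CPM in WT and 3.44, 3.66 and 3.34 CPM in KO (log2 fold change -2.17, SE 0.145, edgeR adjusted p = 7.73e-06). Lypd6b had 8.11, 8.61 and 8.10 CPM in WT and 28.5, 30.8 and 27.8 CPM in KO (log2 fold change 1.81, SE 0.104, edgeR adjusted p = 3.63e-06). Ly6g is a marker of neutrophils, and its estimated counts were not whole numbers. It had 3.73, 2.26 and 9.45 CPM in WT and 0.755, 1.05 and 2.60 CPM in KO. These ranges overlapped, and the fall (log2 fold change -1.80, SE 0.604, edgeR adjusted p = 0.0291) was lost when WT 3, KO 1 or KO 2 was left out, with values of -1.01, -1.49 and -1.61. Cd59a, an inhibitor of complement, did not pass the test (log2 fold change -0.32, SE 0.258, edgeR adjusted p = 0.301).

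Partners of the family were examined with lists of their own. Slurp1, Lynx1, Lypd6 and Lypd6b act on nicotinic acetylcholine receptors, but of 14 receptor subunit genes in the table only Chrnb1, Chrnb2 and Chrnb3 had enough counts to test. Chrnb3 gave 240, 35 and 74 counts in control libraries and 0 in every KO library, which is at least 35.7-fold lower when KO is set at 3 counts per library. The bound rests on WT 1, and without that library it was 17-fold. Its fall passed the test (edgeR adjusted p = 2.08e-03), and Chrnb1 and Chrnb2 did not, with log2 fold changes of -0.43 and 0.07. Chrna7, the subunit most often linked to Slurp1, had 0 counts in every library but 1, where it had 1 count, so a change was not detectable at this depth.

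The urokinase system, whose receptor is Plaur, was examined next. Plau, the urokinase protease itself, had 15.9, 18.0 and 18.4 CPM in WT and 36.1, 43.0 and 34.8 CPM in KO (log2 fold change 1.12, SE 0.119, edgeR adjusted p = 8.37e-05). Inhibitors of the system also rose. Serpinb2, which inhibits urokinase, went from a mean of 0.638 to 116 CPM (log2 fold change 7.49), and Serpine2 from 0.219 to 20.4 CPM (6.51). Plat, the tissue-type activator, had a log2 fold change of 0.64 (SE 0.276) that did not pass (edgeR adjusted p = 0.0726), and without KO 2 it passed at 0.90 (adjusted p = 6.87e-03). Agr2, a secreted ligand of Lypd3, had 0.870, 1.58 and 1.70 CPM in WT and 4.15, 2.96 and 8.57 CPM in KO (log2 fold change 1.91, SE 0.436, edgeR adjusted p = 5.06e-03). It is also a marker of goblet cells and is among the goblet cell markers counted above.

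Ly6e and Ly6a are known as interferon-induced genes, and the list of other such genes went the other way. Of 18 tested genes, 14 fell, against 30.2% of all genes, 1 rose (Ifit2) and 3 did not pass, with a median log2 fold change of -1.02. Irf1, a transcription factor of the pathway, fell from 260.0 ± 33.5 to 132 ± 27.4 CPM (log2 fold change -0.98, SE 0.165, edgeR adjusted p = 1.05e-03). Irf7, another such factor, fell from 85.8 to 32.5 CPM (log2 fold change -1.40), the RNA sensor Ddx58 from 111 to 39.9 CPM (-1.48) and Oasl2 from 239 to 140.0 CPM (-0.77). Gbp2, a guanylate-binding protein, had a log2 fold change of -0.50 that did not pass (edgeR adjusted p = 0.0832), and it was called lower in 5 of the 16 alternative fits. Ly6e and Ly6a rose in the libraries in which these genes fell, and whether the directions are linked was not tested.

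**Figure D5:**
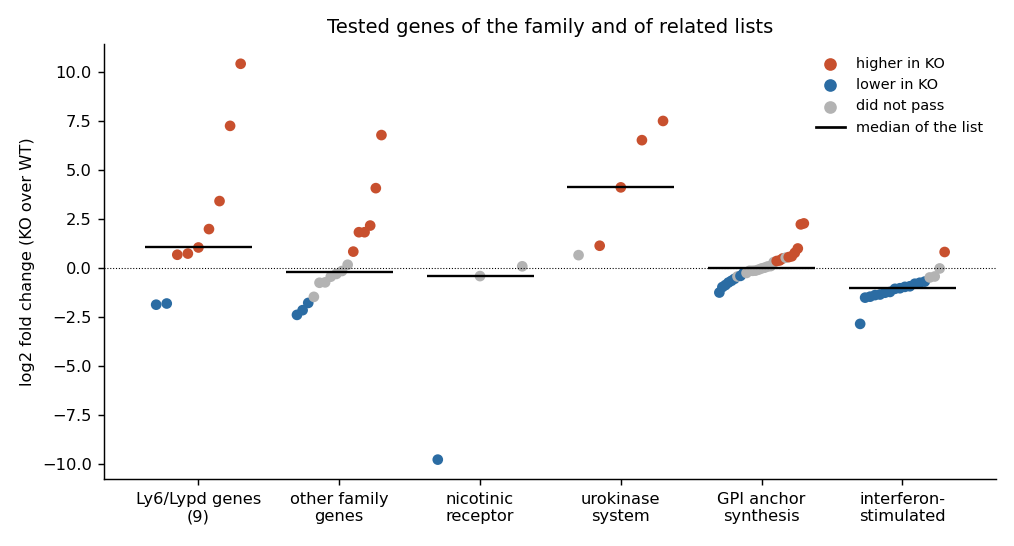
Log2 fold change (KO over WT) of each tested gene among the 9 members, other family genes and related lists, in orange (higher), blue (lower) or grey (did not pass), with the median of a list as a black line. Interferon-stimulated genes lie mostly below 0 (median -1.02) and the urokinase genes above it, and the lowest point is Chrnb3, which had no counts in KO so that its plotted value depends on the small count added in the fit.

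To see which genes of the table most resembled a member over the 6 libraries, the distance between log2 values relative to each gene's mean was taken. For Slurp1 the nearest of 9581 genes were 4930452B06Rik (distance 0.309), Adh6b (0.360) and St6galnac1 (0.385). St6galnac1, a sialyltransferase that modifies mucins, had 662, 631 and 688 CPM in WT and 169, 160.0 and 234 CPM in KO, with KO 3 again the highest KO library. For Ly6d the nearest of 10362 genes were Calm4 (1.19), Klk7 (1.35) and Thbd (1.4). Thbd had 1 count in each WT library and Ly6d itself 8 to 17, so these distances depend on few WT counts. Klk7, a protease of the cornified layer, gave 1, 1 and 2 counts in control libraries and 1605, 804 and 1688 in KO. For Lypd3, the member that changed least, they were Fam220a (0.107), Spg20 (0.135) and Klhl18 (0.141), each with a log2 fold change between 0.61 and 0.72. These likenesses describe 6 libraries of 2 genotypes only.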

How the data were processed

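RNA of separated corneal epithelium was sequenced in 3 WT and 3 KO samples from mice aged 6 months. Whether a sample came from 1 animal or from several is not given in the sources used here. As the study describes it, rRNA was removed before library making and single-end reads of 50 bases came from a BGISEQ-500 instrument, whereas the labels name an Illumina kit. After filtering with SOAPnuke and alignment with Bowtie2 2.2.5, the authors deposited estimated counts of RSEM 1.2.12, FPKM and TPM for each gene and library. RSEM divides reads that match several genes among them, and counts that are not whole numbers are not remarked for every gene that has them. The processing notes name mm9, but the coordinates in the table are those of GRCm38: 75.9% of 17747 genes matched by identifier shared a start or end with RefSeq GRCm38.p6. Whether the counting used strand is not given in the sources used here, so genes that overlap on either strand can hold each other's reads. The deposited FPKM values were used to rank genes within a genotype, and the deposited TPM values for 1 share. The log2 fold changes and p-values of the authors' own DESeq2 comparison, also in the table, were not used.

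Titles and genotype labels gave the groups. After rounding, the estimated counts were tested in R 4.3.3 by edgeR 4.0.16 (TMM, filterByExpr, quasi-likelihood F test, genotype only), with Benjamini-Hochberg adjustment over 13305 genes. SEs were derived from the log2 fold change and its F statistic (absolute value over root F). The coefficient of biological variation was 15.4%. The test was tried on simulated data. The members, gene lists and tests were chosen with earlier results of these data known, so no list is independent support. Named were all members, Rela, other family genes with a mean of at least 100 counts in 1 genotype, up to 4 genes of each other list by mean CPM among those that passed and those that did not, and the 3 genes most like Slurp1, Ly6d and Lypd3 among tested genes with at least 100 counts on average (for Ly6d in KO only). Genes named in counts of 5 or fewer, Ptprc and neighbours in the gene clusters fell outside this rule and were named after their values were seen. A result of the urokinase list is not reported here. Genes spanning over 1000000 bases in the table were left out of the clusters.

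Replicate numbers 1 to 3 appear under each genotype. For each library, the deviations from its genotype's mean log2 CPM were correlated with those of the same-numbered library. The values were 0.0289, -0.00289 and 0.0614, so the main fit had no block. Alternatives were DESeq2 1.42.0, RLE factors, library totals, TMM without the 20 most abundant genes, 2 other filters on low counts, limma 3.58.1 on log2(FPKM + 1) and log2(FPKM + 0.1), a loess correction for gene length, the replicate block and leaving out each library. Tables and plots were made with Python 3.11.15, pandas 2.3.3 and matplotlib 3.10.9.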

Additional observations from a re-analysis of the deposited data

How the results depend on the processing

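In 16 alternative fits the 9 members kept their direction and their calls, with the exception of Ly6g6c under the length correction, which left 6 members higher. The replicate block gave 7 members higher and 2 lower, as did leaving out any library. Over all genes it gave 4149 higher and 3934 lower, against 4231 and 4022. No setting moved the median of all genes by over 0.1 on the log2 scale. The 3 other family genes that fell became 5 with library totals only and 6 with either limma fit or with the length correction, and 2 to 5 when a library was left out (5 without KO 3, 2 without WT 3 or KO 1), while the 6 that rose became 9 with DESeq2 or without a filter on low counts and 4 with a mean count of at least 50. The members' share of counts, 0.512% in WT and 0.451% in KO, was 0.357% and 0.412% without Slurp1, which puts KO above WT, and 1.81% and 0.945% of TPM. For genes near 0, the sign moved: Chrnb2 was -0.02 with library totals only, -0.01 and -0.05 in the limma fits and -0.15 to 0.27 when a library was left out, and Klf5 was 0.02 with a mean count of at least 50 and between -0.1 and 0.15 when a library was left out. None of these passed the test. Klf4 passed in 4 fits, without KO 1 at -0.46. Gbp2 passed in 5, with the replicate block at -0.54 and without KO 3 at -0.83. Psca passed in 8, among them those without WT 2 (-0.58) and without KO 3 (-0.73). S100a9 lost its call when WT 1, WT 3, KO 2 or KO 3 was left out and under the length correction. Chosen after the data were seen, the bound for Chrnb3 was 17-fold without WT 1. Genes with few WT counts had smaller log2 fold changes with limma on log2(FPKM + 1), such as Plaur at 2.39. The cause of these shifts was not tested.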

Other observations

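Most members need a GPI anchor to stay on the cell surface, and 29 genes of anchor synthesis and handling were tested. Of these 9 rose, 8 fell and 12 did not pass, with a median log2 fold change of -0.04, so the share called (31.8% of all genes were higher and 30.2% lower) was near that of all genes in both directions. Piga, which starts anchor synthesis, had a mean of 219 CPM in WT and 148 CPM in KO (log2 fold change -0.57, SE 0.116, edgeR adjusted p = 2.86e-03). Pigt, of the complex that attaches the anchor to proteins, fell from 170.0 to 107 CPM (log2 fold change -0.67, edgeR adjusted p = 3.37e-03), and Pigs of the same complex from 60.0 to 44.8 CPM (-0.42, adjusted p = 1.98e-03). Gpld1, a phospholipase that cleaves the anchor, had a mean of 19.9 ± 2.66 CPM in WT and 92.3 ± 33.7 CPM in KO (SD, n = 3 each). It rose 4.63-fold (log2 fold change 2.21, SE 0.245, edgeR adjusted p = 1.07e-04), and its estimated counts, like those of Piga, were not whole numbers.

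Genes inside the clusters whose symbols were not on the family lists also differed. 2010109I03Rik, between Ly6d and Ly6e on chromosome 15, rose from 0.383 to 17.5 CPM (log2 fold change 5.47, SE 0.495, edgeR adjusted p = 3.76e-05). Beside Lypd3 on chromosome 7, Phldb3 fell from 145 to 55.3 CPM (log2 fold change -1.39, SE 0.167, edgeR adjusted p = 1.68e-04) and Ethe1 rose from 7.97 to 16.2 CPM (log2 fold change 1.03, SE 0.168, edgeR adjusted p = 8.84e-04).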
